A study of Homo sapiens with 12 samples.

Results

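IDH2, the mitochondrial NADP-dependent isocitrate dehydrogenase, and the enzymes of the tricarboxylic acid (TCA) cycle around it were followed across all groups of a study of LSD2 in breast cancer cells. The list held 9 genes, namely IDH1, IDH2, IDH3A, IDH3B, ACO1, CS, FH, MDH1 and MDH2. Of these, 8 had a probe set naming that gene alone in the platform annotation, out of 11963 genes tested in all. FH was not analysed here. The 8 measured genes were covered by 13 probe sets, and each gene is represented by its brightest probe set unless another is named. The list was drawn up around IDH2 with its differences in both comparisons already known, so the values of the listed enzymes are descriptions. Where their calls are counted below beside the shares of all genes, these calls are not read as tests. No threshold was applied to choose them.

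Total RNA was hybridised to 12 Affymetrix arrays, 3 biological replicates for each of 4 lines. All were labelled as MDA-MB-231 cells, an established human breast cancer line of mesenchymal character, stably carrying an LSD2 shRNA, a scramble shRNA as its control, an LSD2/eGFP/Flag vector, or an eGFP/Flag vector as its control. All lines were grown with G-418 at 800 ug/ml to remove untransfected cells. LSD2, encoded by KDM1B, removes methyl groups from lysine 4 of histone H3, and the study asked what changes with less or more of it. The labels do not say whether a line was 1 clone or a pool, so each comparison sets 1 line against another, and the spread between replicates may be technical.

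Deposited values were log2 RMA signals. The arrays carrying shRNAs and those carrying vectors were treated as normalized separately, because the array medians were 6.65 to 6.71 in the shRNA arrays and 7.03 to 7.18 in the vector arrays, so differences were taken only within each set of 6. KDM1B was not analysed here, so neither the shRNA nor the vector was checked here by the level of its target. Arrays of the same group correlated at r = 0.996 to 0.998, taken over genes, which do not serve as replicates. The arrays labelled LSD2/eGFP/Flag stood apart, with r = 0.904 to 0.908 against the eGFP/Flag arrays, whereas LSD2 shRNA and scramble arrays correlated at 0.991 to 0.994. Of 8 listed MDA-MB-231 markers 7 were measured, and their mean log2 level was 7.38 to 7.45 in the LSD2/eGFP/Flag arrays and 12.4 to 12.5 in the eGFP/Flag arrays. All 7 were called lower in LSD2/eGFP/Flag arrays (limma, Benjamini-Hochberg), beside 26.1% of all genes. The largest falls were ANXA1, at 4.65 in LSD2/eGFP/Flag and 13.25 in eGFP/Flag arrays, and CD44, at 3.99 and 12.41. The smallest was VIM, at 12.73 and 14.18. LGALS1 read 6.04 in LSD2/eGFP/Flag and 9.93 in eGFP/Flag arrays, while the other set had 13.35 in LSD2 shRNA and 13.51 in scramble arrays. In the LSD2 shRNA and in the scramble arrays the mean marker level was 12 to 12.1 in both, and 0 of the 7 were called. Of 10 luminal markers, 2 were called higher and 4 lower with the LSD2/eGFP/Flag vector, and 2 higher and 0 lower with the LSD2 shRNA. None of the 3 measured blood markers was called in either comparison by limma. Of the 6 fibroblast and endothelial markers, 3 were called higher and 1 lower with the LSD2/eGFP/Flag vector, and 1 higher and 0 lower with the LSD2 shRNA. Of all genes, 30.9% were called higher and 26.1% lower with the vector, and 5% and 5.53% with the LSD2 shRNA. Nothing is read from the luminal, blood, fibroblast and endothelial counts. By the 7 MDA-MB-231 markers, the values of the LSD2/eGFP/Flag arrays go against their labelled cell line. Whether these arrays came from MDA-MB-231 cells could not be settled here. Every vector difference below rests on these arrays, and in it an effect of the LSD2/eGFP/Flag vector and a difference between cell lines cannot be told apart.

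As background, the TCA cycle oxidises acetyl groups in the mitochondrial matrix. Citrate synthase joins acetyl-CoA to oxaloacetate, aconitase rearranges citrate to isocitrate, isocitrate dehydrogenase oxidises that to alpha-ketoglutarate, and malate dehydrogenase closes the circle by regenerating oxaloacetate. Isocitrate is oxidised by different enzymes: the NAD-dependent IDH3, built from alpha, beta and gamma subunits and regarded as the committed cycle enzyme, and the NADP-dependent IDH2 in mitochondria and IDH1 in the cytosol and peroxisomes. The NADP-dependent pair makes NADPH and can also run towards isocitrate. Their product alpha-ketoglutarate is a cosubstrate of the Jumonji histone demethylases and of TET enzymes, while LSD2 itself uses FAD.

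The sequence windows of the enzymes give the first view of them. RefSeq promoter windows of GRCh38.p14, running from 250 bases before a start to 50 after it, were available for all 8 measured enzymes as 10 windows. Those of IDH2 and of MDH2, the mitochondrial malate dehydrogenase, are shown because IDH2 has the largest differences of the list and the fewest CpG dinucleotides in its window, and because MDH2 had the highest r with IDH2 over the arrays (given below) and is the one whose window holds the ETS core more than once. Capitals mark CCGGAAG, the core bound by ETS factors. The IDH2 window is at chr15:90100572-90100871 on the minus strand and the MDH2 window is at chr7:76047856-76048155 on the plus strand.
IDH2: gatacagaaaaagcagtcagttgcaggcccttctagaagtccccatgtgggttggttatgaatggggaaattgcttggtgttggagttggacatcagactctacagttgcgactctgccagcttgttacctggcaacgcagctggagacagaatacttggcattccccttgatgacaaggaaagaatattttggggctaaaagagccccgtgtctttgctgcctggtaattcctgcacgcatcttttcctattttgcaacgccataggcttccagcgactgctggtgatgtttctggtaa
MDH2: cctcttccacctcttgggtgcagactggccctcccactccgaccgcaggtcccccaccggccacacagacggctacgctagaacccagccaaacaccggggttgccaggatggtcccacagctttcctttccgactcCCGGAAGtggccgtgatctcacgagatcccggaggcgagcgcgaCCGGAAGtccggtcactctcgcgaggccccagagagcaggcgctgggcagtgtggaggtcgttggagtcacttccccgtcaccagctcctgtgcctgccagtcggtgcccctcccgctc

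The start of the IDH2 window lies 1847 bases inside the outer end of the gene as the same RefSeq assembly lists it, so it belongs to an internal start. No window at that outer end was available, so the sequence there was not examined, and the IDH2 counts describe the internal start alone. It held 6 CpG dinucleotides, against 23 in the MDH2 window and a median of 14 over 35116 windows of the same length. The other 8 windows held 17 to 36 CpG. Motifs were searched on both strands. The GC box GGGCGG occurred in windows of 4 of the 8 enzymes (IDH1, IDH3A, ACO1 and CS) and in 45% of all windows. The ETS core CCGGAAG occurred in those of MDH2, in 2 copies, and IDH3B, and in 10.3% of all windows. TGCGCA, the centre of the NRF1 motif, occurred in those of IDH3A and IDH3B and in 8.24% of all windows. The E-box CACGTG occurred in windows of 0 of the 8 and in 7.26% of all. A match is a string of letters and not a measured binding site.

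IDH2 was lower with the LSD2 shRNA and higher with the LSD2/eGFP/Flag vector, each against its own control. Its log2 values were 6.20, 6.34 and 5.76 in LSD2 shRNA arrays, against 7.75, 8.25 and 7.67 in scramble arrays. The groups did not overlap, and the lowest scramble array was above every LSD2 shRNA array by more than the range of either group (0.58 and 0.59). The difference was -1.79 ± 0.21 log2 units (standard error of the fit), a signal 3.46-fold lower with the LSD2 shRNA. In the other set the values were 9.77, 9.19 and 9.81 in LSD2/eGFP/Flag arrays, against 7.43, 7.18 and 7.80 in eGFP/Flag arrays. Again the groups did not overlap, and here the difference was 2.12 ± 0.21, a signal 4.35-fold higher with the LSD2/eGFP/Flag vector.

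By size, the IDH2 difference was the 14th largest of all genes in the shRNA comparison. In the vector comparison it ranked 680th, where 94.3% of genes differed by less. Ranked within its own array, IDH2 stood at percentile 29.4 to 38 of genes in LSD2 shRNA arrays and 56 to 63 in scramble arrays, and at 64.4 to 72 in LSD2/eGFP/Flag arrays and 43.8 to 49 in eGFP/Flag arrays. In that order of ranks both control lines lay between the LSD2 shRNA line and the LSD2/eGFP/Flag line. The control lines differed from each other, and the sets appear to have been normalized separately. Whether the LSD2/eGFP/Flag arrays came from MDA-MB-231 cells was also not settled, so no order by LSD2 level is read from the ranks.

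The other, dimmer IDH2 probe set gave the same directions with smaller sizes. It read 6.37, 6.05 and 5.61 in LSD2 shRNA arrays, against 7.32, 7.43 and 7.06 in scramble arrays. It read 7.60, 7.40 and 8.14 in LSD2/eGFP/Flag arrays, against 6.04, 5.66 and 6.60 in eGFP/Flag arrays. Neither pair of groups overlapped, and the differences were -1.26 ± 0.25 and 1.61 ± 0.25. Both are values of 1 gene on the same arrays and so are not separate replicates.

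**Figure D1:**
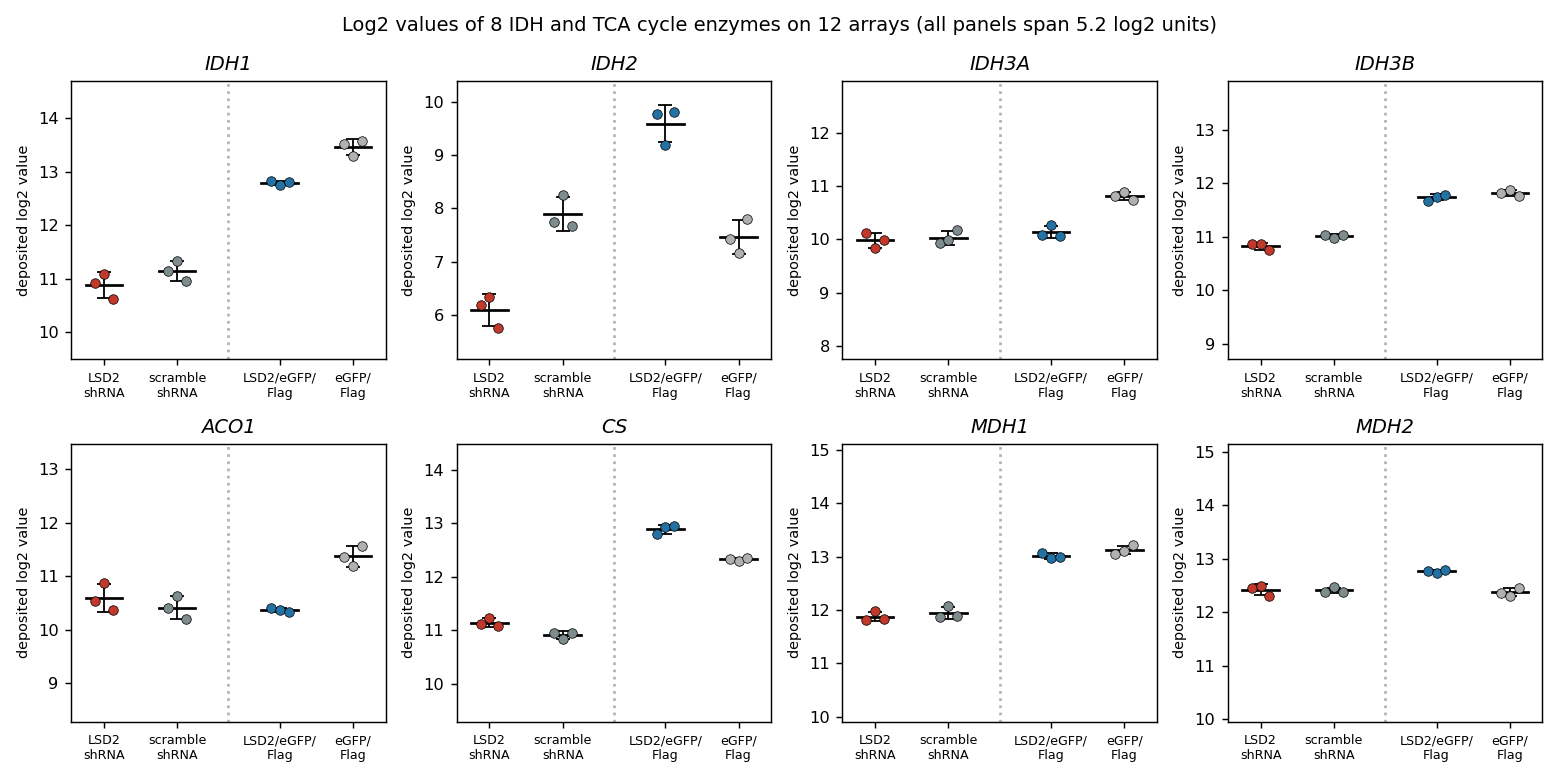
Deposited log2 values (vertical axis) of the 8 measured enzymes, 1 point per array, with the group mean (bar) and SD (whiskers, n = 3); the dotted line parts the shRNA from the vector arrays, and every panel has the same vertical span. IDH2 has the widest separation, -1.79 with the LSD2 shRNA and 2.12 with the LSD2/eGFP/Flag vector, while MDH1 groups overlap in both comparisons.

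Counted over the list, 1 of the 8 enzymes (IDH2) was called lower with the LSD2 shRNA at an adjusted p under 0.05 (limma, Benjamini-Hochberg over all genes), beside 5.53% of all genes called lower, and 0 were called higher, beside 5% of all genes. With the LSD2/eGFP/Flag vector 3 were called higher (IDH2, CS and MDH2), beside 30.9% of all genes, and 3 lower (IDH1, IDH3A and ACO1), beside 26.1%. Under 13 alternative settings, CS was called higher with the LSD2 shRNA in 4, and IDH3B lower in 1 in each comparison. The other enzymes kept the same outcome in all of these settings. Groups of 3 arrays did not overlap for 3 of the 8 in the shRNA comparison (28.3% of all genes) and for 6 of the 8 in the vector comparison (61.1% of all genes). The median difference of the list was -0.056 with the LSD2 shRNA, against -0.0052 over all genes, and -0.094 with the LSD2/eGFP/Flag vector, against 0.012 over all genes. The list was chosen with these comparisons known, so the calls are not read as tests of the enzymes, and nothing is read from the counts.

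IDH1, the cytosolic and peroxisomal paralog, did not follow IDH2. Its values were 10.92, 11.09 and 10.62 in LSD2 shRNA arrays, against 11.15, 11.32 and 10.95 in scramble arrays, and the groups overlapped at a difference of -0.26 ± 0.12. In LSD2/eGFP/Flag arrays it read 12.82, 12.75 and 12.80, against 13.52, 13.30 and 13.57 in eGFP/Flag arrays. There the groups did not overlap, and IDH1 was lower with the LSD2/eGFP/Flag vector (-0.67 ± 0.12) in the comparison in which IDH2 was higher.

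The subunits of the NAD-dependent IDH3 also took different directions in the vector comparison. IDH3A, the catalytic alpha subunit, read 10.13, 9.84 and 9.98 in LSD2 shRNA arrays, against 9.93, 9.98 and 10.17 in scramble arrays, which overlapped (-0.047 ± 0.094). It read 10.08, 10.27 and 10.07 in LSD2/eGFP/Flag arrays, against 10.81, 10.89 and 10.73 in eGFP/Flag arrays, which did not overlap (-0.67 ± 0.09). Its probe sets disagreed in size, since the dimmer set gave -0.29 ± 0.09 with the LSD2 shRNA, without overlap, and -0.15 ± 0.09 with the LSD2/eGFP/Flag vector, with overlap.

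IDH3B, the beta subunit, read 10.87, 10.86 and 10.75 in LSD2 shRNA arrays, against 11.04, 10.98 and 11.04 in scramble arrays. These groups did not overlap, although the difference was only -0.19 ± 0.07. In LSD2/eGFP/Flag arrays it read 11.68, 11.75 and 11.79, against 11.82, 11.88 and 11.77 in eGFP/Flag arrays, which overlapped (-0.083 ± 0.065). Its brightest probe set carries the suffix _x_at, which Affymetrix gives to sets with probes that may match other transcripts. The next set gave similar values (-0.20 and -0.080), but the dimmest gave -0.18 ± 0.07 and, with the LSD2/eGFP/Flag vector, -0.54 ± 0.07 without overlap. IDH3G, the gamma subunit, was not on the list and was tested with the other pathway genes below, where it was higher with the LSD2/eGFP/Flag vector.

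**Figure D2:**
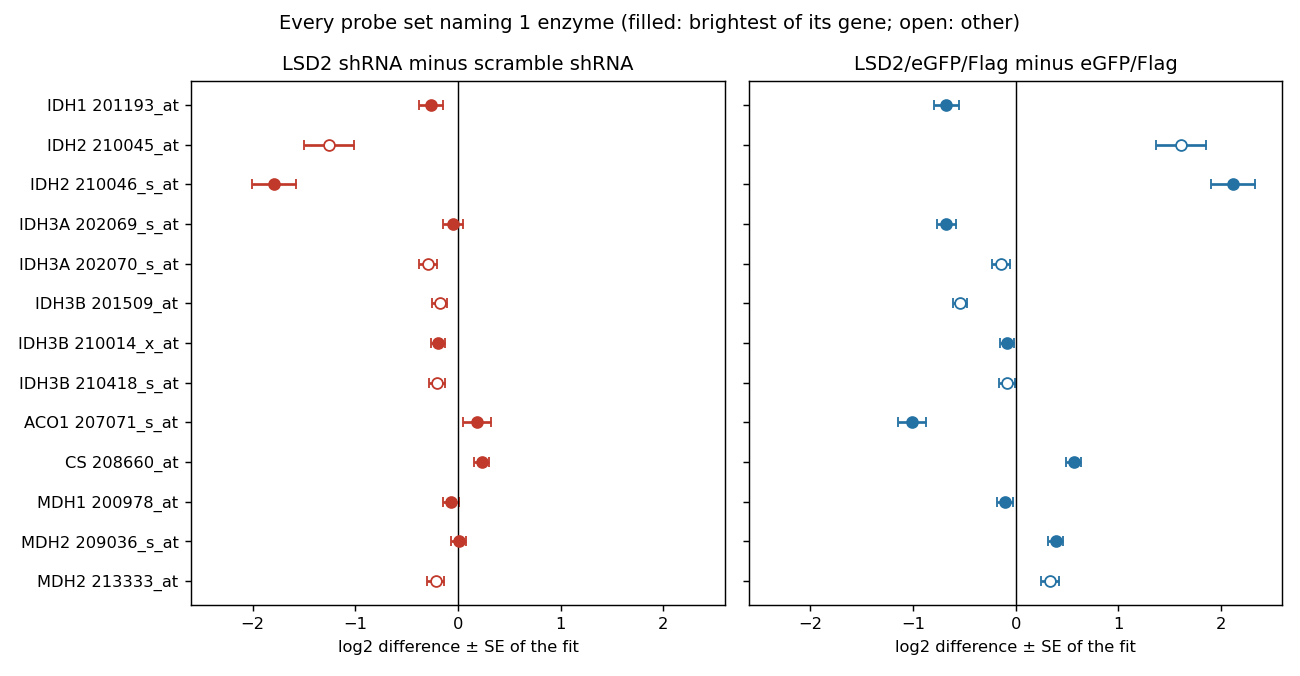
Log2 differences with the standard error of the fit (horizontal axis) for all 13 probe sets of the 8 enzymes (vertical axis), LSD2 shRNA minus scramble shRNA on the left and LSD2/eGFP/Flag minus eGFP/Flag on the right; filled points are the brightest set of a gene. Both IDH2 sets lie on the same side in each comparison, while the sets of IDH3A (-0.67 and -0.15) and IDH3B (-0.083, -0.080 and -0.54) differ in size in the vector comparison.

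CS, citrate synthase, was the only listed enzyme whose brightest probe set was higher without overlap in both comparisons. It read 11.12, 11.23 and 11.07 in LSD2 shRNA arrays, against 10.95, 10.83 and 10.95 in scramble arrays (0.23 ± 0.07). It read 12.79, 12.93 and 12.94 in LSD2/eGFP/Flag arrays, against 12.33, 12.29 and 12.35 in eGFP/Flag arrays (0.57 ± 0.07).

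ACO1, the cytosolic aconitase that without its iron-sulfur cluster acts as iron regulatory protein IRP1, had overlapping groups in the shRNA comparison, with 10.53, 10.87 and 10.36 in LSD2 shRNA arrays, against 10.40, 10.62 and 10.19 in scramble arrays (0.18 ± 0.14). With the vector it read 10.40, 10.36 and 10.33 in LSD2/eGFP/Flag arrays, against 11.36, 11.18 and 11.56 in eGFP/Flag arrays. The groups did not overlap, and the difference of -1.01 ± 0.14 was the most negative of the 8 there.

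The malate dehydrogenases differed little with the LSD2 shRNA. MDH1, the cytosolic enzyme of the malate-aspartate shuttle, read 11.81, 11.98 and 11.84 in LSD2 shRNA arrays, against 11.87, 12.07 and 11.89 in scramble arrays (-0.064 ± 0.078). It read 13.07, 12.97 and 13.00 in LSD2/eGFP/Flag arrays, against 13.05, 13.10 and 13.21 in eGFP/Flag arrays (-0.10 ± 0.08), and both pairs of groups overlapped. MDH2, the cycle enzyme, read 12.46, 12.50 and 12.31 in LSD2 shRNA arrays, against 12.39, 12.47 and 12.39 in scramble arrays (0.0074 ± 0.0705), again with overlap. With the vector, MDH2 read 12.77, 12.73 and 12.80 in LSD2/eGFP/Flag arrays, against 12.36, 12.31 and 12.46 in eGFP/Flag arrays, without overlap (0.39 ± 0.07). Its dimmer set gave 0.34 ± 0.09 there, but -0.22 ± 0.09 without overlap in the shRNA comparison.

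The spread between replicates was not even over the enzymes. IDH2 had the largest SD of the list in every group (0.30 in LSD2 shRNA, 0.32 in scramble, 0.35 in LSD2/eGFP/Flag and 0.31 in eGFP/Flag arrays). Replicate 2 was the highest array of both the LSD2 shRNA and the scramble group for 5 of the 8 enzymes, IDH1, IDH2, ACO1, MDH1 and MDH2. IDH1 and ACO1 had SDs of 0.23 and 0.26 in LSD2 shRNA arrays, but 0.035 for each in LSD2/eGFP/Flag arrays.

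The genes most like IDH2 were taken as those with the highest Pearson r over the 12 arrays after the mean of each set of 6 was subtracted, as a description. MXRA7 (r = 0.993), DVL2 (0.990), ADCK2 (0.985), AP2A2 (0.983) and the nonmuscle myosin gene MYH10 (0.981) came first. MYH10 was closest in size, with differences of -2.0 with the LSD2 shRNA and 2.29 with the LSD2/eGFP/Flag vector, and MXRA7 had -0.34 and 0.41. MXRA7, DVL2 and MYH10 lie on chromosome 17, while IDH2 lies on chromosome 15. Among the listed enzymes r with IDH2 was highest for MDH2 (0.76) and lowest for IDH3A (-0.70). These r values mix steps between lines with the spread between replicates, and the 12 arrays hold only 4 lines.

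Along chromosome 15 the genes beside IDH2 did not share its size. Of its 10 nearest tested genes in RefSeq order, 0 were called higher and 1 lower with the LSD2 shRNA, with differences from -0.35 to 0.0087 (median -0.17) beside -1.79 for IDH2. The 1 called was PEX11A, a peroxisome proliferation factor, at -0.35 ± 0.10. With the LSD2/eGFP/Flag vector 2 were called higher, PEX11A (0.97 ± 0.10) and the aminopeptidase ANPEP (0.77 ± 0.18). A further 3 were called lower, CIB1 (-0.86 ± 0.07), NGRN (-0.995 ± 0.079) and the scaffold protein gene IQGAP1 (-1.27 ± 0.12). All calls are by limma with Benjamini-Hochberg adjustment. For scale, calls in either direction covered 57% of all genes in the vector comparison and 10.5% in the shRNA comparison. No local pattern is read from the neighbour calls.

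**Figure D3:**
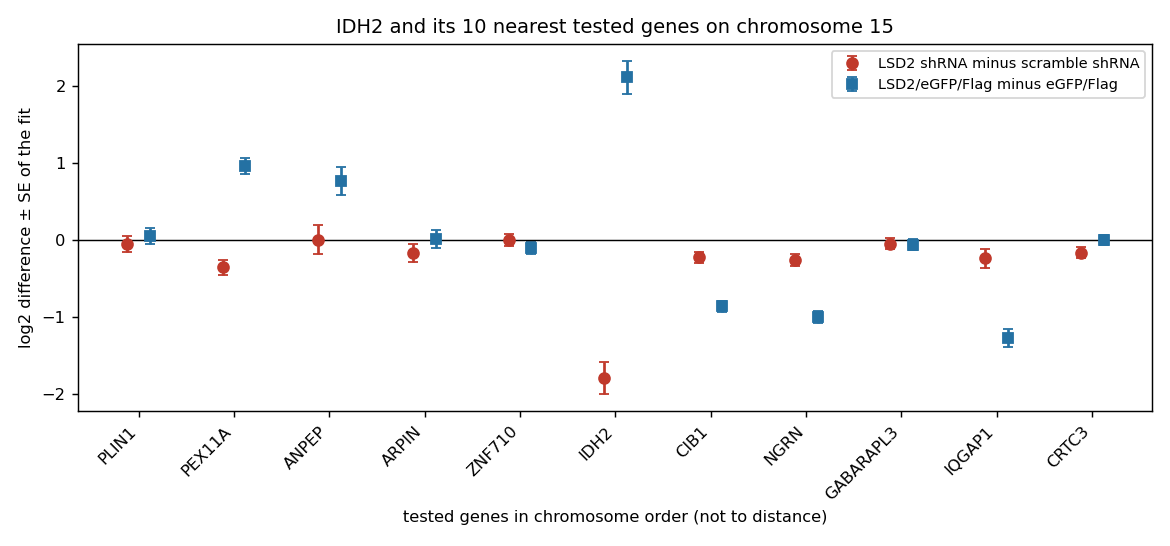
Log2 differences with the standard error of the fit (vertical axis) of IDH2 and its 10 nearest tested genes in chromosome order (horizontal axis, not to distance), circles for LSD2 shRNA minus scramble shRNA and squares for LSD2/eGFP/Flag minus eGFP/Flag. IDH2 at -1.79 and 2.12 lies outside its neighbours, which range from -0.35 to 0.0087 and from -1.27 to 0.97.

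Other enzymes with small shRNA differences were set beside their own neighbours and chromosomes. The 10 genes beside CS had a median of 0.13 with the LSD2 shRNA, with 3 called higher and 0 lower, beside 0.23 for CS, and of 674 tested genes on its chromosome 12, 61 were called higher and 6 lower. For IDH3B the median of the 10 neighbours was -0.0092 beside -0.19, with 0 called, while on chromosome 20 of 331 genes 8 were called higher and 44 lower. On chromosome 15, which carries IDH2 and IDH3A, 4 of 360 genes were called higher and 41 lower with the LSD2 shRNA. On chromosome 2, with IDH1 and MDH1, 24 of 755 were called higher and 91 lower. For IDH1 the median of the 10 neighbours was -0.022 beside -0.26, with 0 called higher and 1 lower. On chromosome 9, with ACO1, 13 of 452 genes were called higher and 18 lower. On chromosome 7, with MDH2, 18 of 540 were called higher and 24 lower. Over all genes 5% were called higher and 5.53% lower. The part of chromosome-wide leanings in the small differences of CS, IDH1 and IDH3B was not tested.

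The rest of the pathway was read from 51 further genes, of which 41 were measured. With the LSD2 shRNA, 0 of the 41 rose and 4 fell (9.76%, beside 10.5% of all genes called in either direction, limma with Benjamini-Hochberg adjustment), and their median difference was -0.042. At an unadjusted p under 0.05 the limma fit counted 20 of the 41 in either direction, beside 2755 of all 11963 genes. The split depended on the setting: 2 rose and 3 fell with equal array medians, 2 rose and 4 fell with cyclic loess, 2 rose and 6 fell when the dimmest genes were left out, and 7 rose and 10 fell with array weights. It was 2 and 2 when scramble replicate 2 was left out. With the LSD2/eGFP/Flag vector 24 rose and 7 fell (75.6%, beside 57% of all genes), and the median was 0.30, against 0.012 over all genes. These vector counts come from the arrays in which 7 of 7 MDA-MB-231 markers were lower.

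The 4 genes that fell with the LSD2 shRNA act at the entry of pyruvate and in transport. SLC25A11, the mitochondrial carrier that exchanges malate for alpha-ketoglutarate, averaged 9.21 in LSD2 shRNA arrays, against 9.76 in scramble arrays, and fell by 0.56 (adjusted p = 0.000312, limma). Its other probe set gave -0.65. DLD, the dihydrolipoamide dehydrogenase shared by the pyruvate and alpha-ketoglutarate dehydrogenase complexes, fell by 0.33 (adjusted p = 0.00617, limma). PDHX, the binding protein of the pyruvate dehydrogenase complex, also fell by 0.33 (adjusted p = 0.0231, limma), and PC, pyruvate carboxylase, fell by 0.54 (adjusted p = 0.0454, limma). In the vector comparison SLC25A11 rose by 1.10 ± 0.07, DLD by 0.43 ± 0.07 and PC by 0.43 ± 0.16, so that these 3 had the same pair of signs as IDH2, while PDHX fell by 0.37.

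The shRNA calls of PDHX and PC depended on the setting. That of PDHX was lost when LSD2 shRNA replicate 1 or 2, or any 1 of the 3 scramble arrays, was left out, and with equal array medians. That of PC was lost when LSD2 shRNA replicate 1 or 3, or scramble replicate 1 or 2, was left out, and with a replicate block, cyclic loess or a fit to the compared groups alone. The vector call of PC was lost in 5 of 13 settings, when LSD2/eGFP/Flag replicate 1 or 3, or eGFP/Flag replicate 1 or 2, was left out, and with cyclic loess. Over all alternative settings the adjusted p (limma) ranged from 0.0016 to 0.0913 for PDHX and from 0.0127 to 0.182 for PC. The call of DLD and that of SLC25A11 held in all 13 settings. The count of 4 became 2 when LSD2 shRNA replicate 1 was left out, and also 2 when scramble replicate 1 was.

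Of 13 genes of pyruvate entry 8 rose and 1 fell with the LSD2/eGFP/Flag vector (69.2% called, beside 57% of all genes). MPC1, a subunit of the mitochondrial pyruvate carrier, averaged 10.35 in LSD2/eGFP/Flag arrays, against 8.78 in eGFP/Flag arrays, and rose by 1.57 ± 0.10. PDK3, a kinase that inhibits pyruvate dehydrogenase, rose by 0.85 ± 0.12, but its other probe sets gave 0.040 and 0.29. DLAT, the acetyltransferase of the complex, rose by 0.83 ± 0.10, and PDHA1, its catalytic subunit, by 0.65 ± 0.07. The adjusted p of these 4 (limma) was at most 2.46e-05.

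Of the 10 measured genes for other steps of the cycle, 8 rose and 1 fell with the LSD2/eGFP/Flag vector (90% called, beside 57% of all genes). With the LSD2 shRNA 0 were called, beside 10.5% of all genes, but this depended on the setting. With array weights IDH3G, OGDH and SDHA were called lower and SUCLA2, SUCLG2 and SDHD higher. OGDH was called in 3 of 13 settings and IDH3G in 2. The call of SUCLG1, the alpha subunit of succinyl-CoA ligase, among the 8 (0.20 ± 0.07) was lost in 7 of 13 settings. These were the replicate block, the compared groups alone, equal medians, and leaving out LSD2/eGFP/Flag replicate 1 or 3 or eGFP/Flag replicate 1 or 2. The call of DLST was lost with equal medians (adjusted p = 0.0503, limma). SDHD rose by 0.37 ± 0.08, but its other probe set gave -0.061. IDH3G averaged 10.49 in LSD2/eGFP/Flag arrays, against 8.64 in eGFP/Flag arrays, and rose by 1.85 ± 0.09 (adjusted p = 6.16e-10, limma), with 1.07 by its other probe set. This is opposite in sign to IDH3A at -0.67. OGDHL, a homolog of the alpha-ketoglutarate dehydrogenase subunit OGDH, rose by 1.64 ± 0.12, while OGDH itself fell by 0.77 (adjusted p = 7.16e-06, limma). SUCLA2, the ADP-dependent beta subunit of succinyl-CoA ligase, rose by 1.10 ± 0.06, and the GDP-dependent SUCLG2 was not called (-0.078 ± 0.126). With the LSD2 shRNA IDH3G was at -0.26 ± 0.09 (adjusted p = 0.0826, limma), which was not called.

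**Figure D4:**
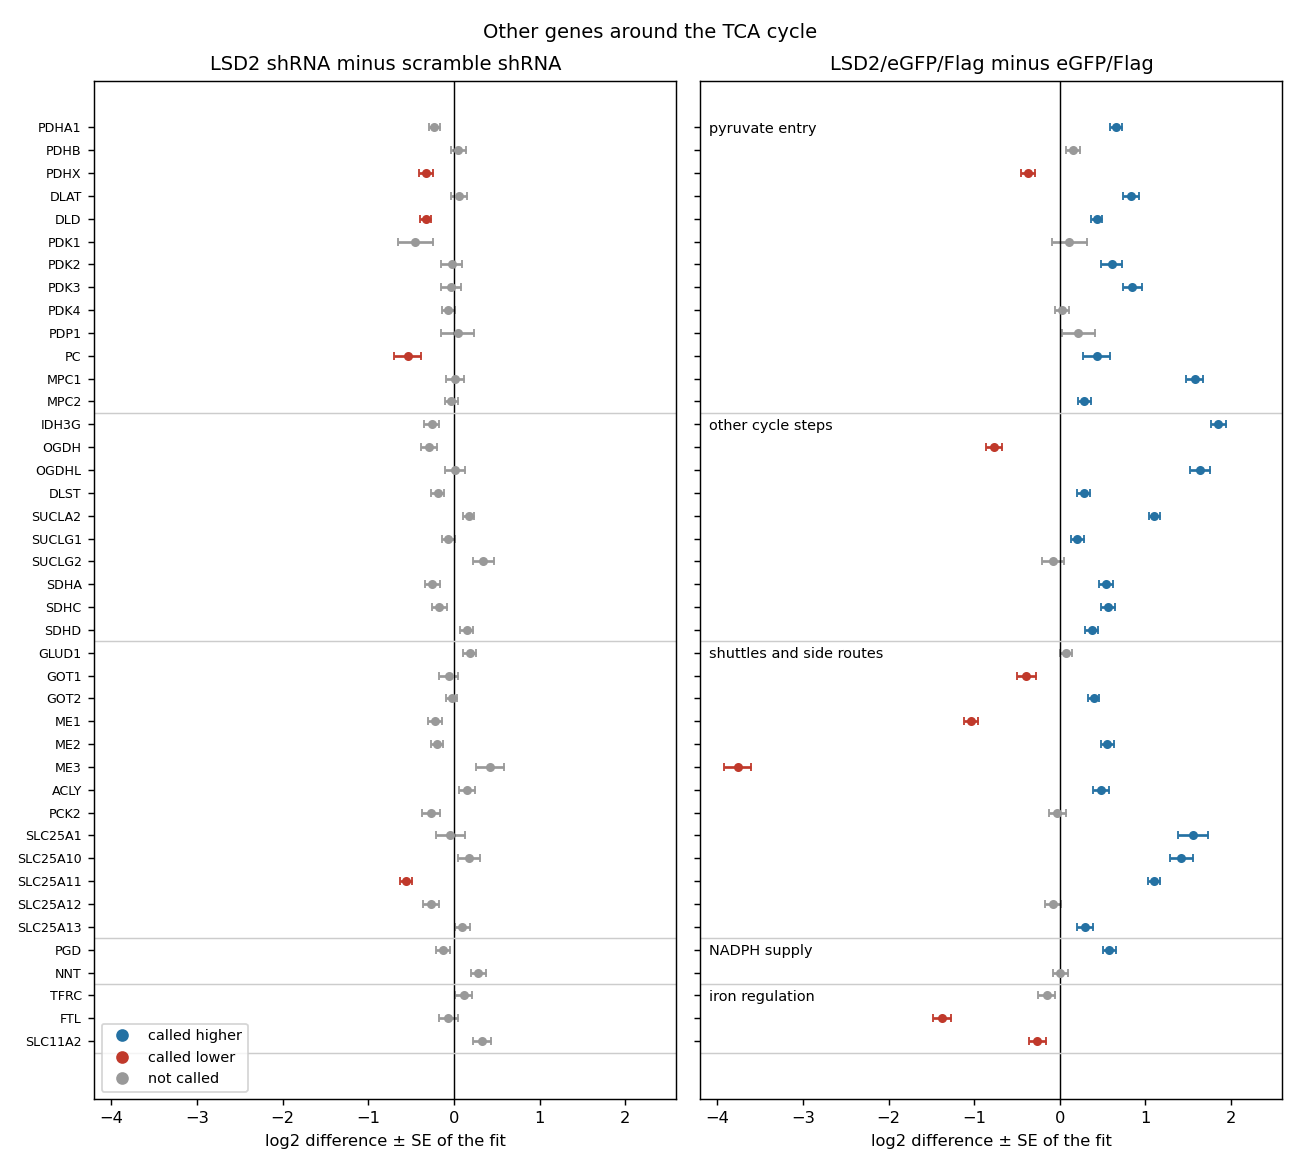
Log2 differences with the standard error of the fit (horizontal axis) of the 41 measured other pathway genes (vertical axis, grouped by list), LSD2 shRNA minus scramble shRNA on the left and LSD2/eGFP/Flag minus eGFP/Flag on the right, blue for called higher, red for called lower and grey for not called. On the left 4 genes are called, all lower, and on the right 24 are higher and 7 lower, ME3 at -3.77 lying farthest out.

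Among 13 measured genes of shuttles and side routes 7 rose and 3 fell with the LSD2/eGFP/Flag vector (76.9% called, beside 57% of all genes). ME3, a mitochondrial NADP-dependent malic enzyme, averaged 5.56 in LSD2/eGFP/Flag arrays, against 9.33 in eGFP/Flag arrays, and fell by 3.77 (adjusted p = 2.08e-10, limma). With the LSD2 shRNA ME3 was at 0.42 ± 0.16, which was not called. The citrate carrier SLC25A1 rose by 1.56 ± 0.17, the dicarboxylate carrier SLC25A10 by 1.42 ± 0.13 and SLC25A11 by 1.10 ± 0.07, with an adjusted p of at most 2.84e-06 (limma). The mitochondrial NAD-linked ME2 rose by 0.55 ± 0.07 and the cytosolic ME1 fell by 1.03, with -1.33 and -0.092 by its other probe sets.

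Among other NADPH sources PGD, a dehydrogenase of the pentose phosphate pathway, rose by 0.58 ± 0.08 with the LSD2/eGFP/Flag vector (adjusted p = 2.49e-05, limma). The mitochondrial transhydrogenase NNT was at 0.0039 ± 0.0857 there and at 0.29 ± 0.09 with the LSD2 shRNA (adjusted p = 0.0512, limma), not called in either. With the LSD2 shRNA the NNT groups did not overlap, and NNT was called higher in 6 of 13 alternative settings. Of 3 measured genes of iron handling, in which ACO1 takes part as IRP1, 2 fell with the LSD2/eGFP/Flag vector. This is 66.7%, beside 57% of all genes called in either direction and 26.1% called lower. A link between these genes and the ACO1 signal was not tested. FTL, the ferritin light chain, averaged 12.26 in LSD2/eGFP/Flag arrays, against 13.64 in eGFP/Flag arrays, and fell by 1.38 (adjusted p = 1.03e-07, limma). SLC11A2, an iron importer, fell by 0.26 (adjusted p = 0.0388, limma), but its other 3 probe sets ranged from -0.32 to 0.32. That call was lost when any 1 of the 3 LSD2/eGFP/Flag arrays, or eGFP/Flag replicate 1 or 2, was left out, and with the compared groups alone or the mean of all probe sets. The transferrin receptor TFRC was not called (-0.16 ± 0.10), but its other probe set gave -0.40. TFRC was called lower in 2 of 13 settings, with the mean of all probe sets and without eGFP/Flag replicate 3. With the LSD2 shRNA 0 of the 3 were called, beside 10.5% of all genes, although SLC11A2 was called higher in 5 of 13 settings.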

How the data were processed

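Log2 values for 22277 probe sets on 12 arrays were used as the authors deposited them; the submitters' processing notes name RMA. The software behind RMA is not given in the sources used here. Of the probe sets, 19064 named 1 gene in the platform annotation, 1043 named several and were left out, and symbols were updated through a RefSeq gene table (19052 matched). The brightest probe set over all arrays stood for a gene. The files hold no detection calls, and precision is limited by the number of arrays.

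Differences were fitted with limma 3.58.1 in R 4.3.3 (lmFit and eBayes, group means, all 12 arrays in 1 fit, 8 residual degrees of freedom). Tests were two-sided, adjusted by Benjamini-Hochberg over 11963 genes, and called under 0.05. Enzymes and lists were chosen with earlier results of these data known. Named were all listed enzymes, other pathway genes called with the LSD2 shRNA, up to 4 called genes per list with the largest vector differences, the 5 genes most like IDH2, and its called chromosome neighbours. A few further genes of the lists were named after their values were seen. Simulated arrays of 11963 genes had 200 changed genes and independent normal noise, with the same SD per gene for both comparisons. The shRNA fit recovered 59.7%, 95.5% and 100% of changes of 0.5, 1 and 2, and the vector fit 70.1%, 97% and 100%. Of the calls, 4.49% and 3.26% were false. Nothing is read from the gap between the fits. In the real vector comparison 57% of genes were called, so these rates do not carry over to it. Alternatives are given in the closing section.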

Additional observations from a re-analysis of the deposited data

How the results depend on the processing

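With the LSD2 shRNA the count of called genes was 1260 (598 higher, 662 lower). It was 2350 with array weights, 564 at an adjusted p under 0.01 and 752 to 1022 when 1 array was left out, where leaving out LSD2 shRNA replicate 1 gave 774, scramble replicate 1 gave 752 and scramble replicate 2 gave 832. A shift to equal medians turned the split to 760 higher and 515 lower. The count of 4 other pathway genes was 8 (2 higher, 6 lower) when the dimmest genes were left out, 17 (7 higher, 10 lower) with array weights and 2 to 4 with 1 array left out. Its split of 0 higher and 4 lower became 2 and 3 with equal medians and 2 and 4 with cyclic loess. With the vector the counts stayed within 1.5 times of 6824 and 31, with 6411 to 6611 and 27 to 32 when 1 array was left out. The cause of these shifts was not tested.

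Replicate numbers were not taken as pairing, which the labels do not state. Deviations of same-numbered arrays correlated at 0.020, 0.51 and 0.45 in the shRNA set and at -0.14, 0.18 and 0.18 in the vector set. What same-numbered shRNA arrays share was not tested. A replicate block gave 1071 and 6691 called genes and 3 and 30 other pathway genes, with the calls of PC (shRNA) and SUCLG1 (vector) lost.

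Of 218 differences of the listed enzymes under alternatives, 208 moved by less than the replicate SD and 10 by more, 9 of them through another or an averaged probe set, and no called difference changed sign. The IDH2 difference lay between -1.91 and -1.61 with the LSD2 shRNA and between 1.97 and 2.32 with the vector when 1 array was left out. Scaling changed the median of all genes by at most 0.06 log2 units.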
